A study of Homo sapiens with 4 samples.

Results

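The regions described here are broad 3' UTR peaks of YTHDF2 RNA immunoprecipitation sequencing (RIP-seq) in HCCLM3, a human liver cancer line of high metastatic potential. They were selected on their width: every peak of the deposited list on chromosomes 1 to 22 or X that was annotated to a 3' UTR and was 600 bp wide or more. This chose 797 of 4042 3' UTR peaks on those chromosomes, or 797 of 14858 peaks in all, and they lay in 744 genes. Each peak was given to the gene whose hg38 span contained its summit, the position of highest enrichment, and not to the gene with the closest transcription start, which the deposited list names.

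The study asked which RNAs YTHDF2 binds in these cells, as part of work on condensates that YTHDF2 forms with the CREB coactivator CRTC2. It had 2 YTHDF2 RIP libraries and 2 input libraries, all from HCCLM3 cells of wild-type genotype with no treatment given in the labels. No library came from a control pulldown, and a peak is an enrichment over input. The data were 1 peak list of the combined libraries. It gives neither a spread between replicates nor a sequencing depth, and the labels leave unsaid whether replicates were separate cultures.

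N6-methyladenosine (m6A) is an internal mark of mRNA that is placed mostly near stop codons and in 3' UTRs. YTHDF2 reads it through its YTH domain and, through its other, disordered region, brings deadenylases to the bound mRNA, which shortens the poly(A) tail and starts decay. The 3' UTR also holds the sites of microRNAs and AU-rich element proteins, and its length differs widely between genes. A long enriched stretch can hold several binding positions, which a peak list does not separate.

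The broad peaks ran from 600 to 3180 bp, with a median of 723 bp and quartiles of 646 and 850 bp. The 3245 3' UTR peaks under 600 bp had a median of 374 bp, and the narrowest width in the list, 315 bp, was shared by 4402 peaks of all classes. Broad peaks made up 19.7% of 3' UTR peaks (95% Clopper-Pearson interval 18.5 to 21.0) and covered 634595 of the 1931052 bp under 3' UTR peaks, or 32.9%. In the other transcript classes on the same chromosomes, widths of 600 bp or more were found for 329 of 2449 promoter peaks (13.4%), 226 of 2954 exon peaks (7.65%), 197 of 3157 intron peaks (6.24%), 129 of 1724 intergenic peaks (7.48%), 13 of 168 5' UTR peaks (7.74%) and 2 of 10 downstream peaks (20%, interval 2.52 to 55.6). The intervals cover counting error only. Wider peaks were fewer: 345 broad peaks were under 700 bp, 194 were from 700 to under 800 bp, 163 from 800 to under 1000 bp, 75 from 1000 to under 1500 bp, and 20 were wider than that.

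**Figure D1:**
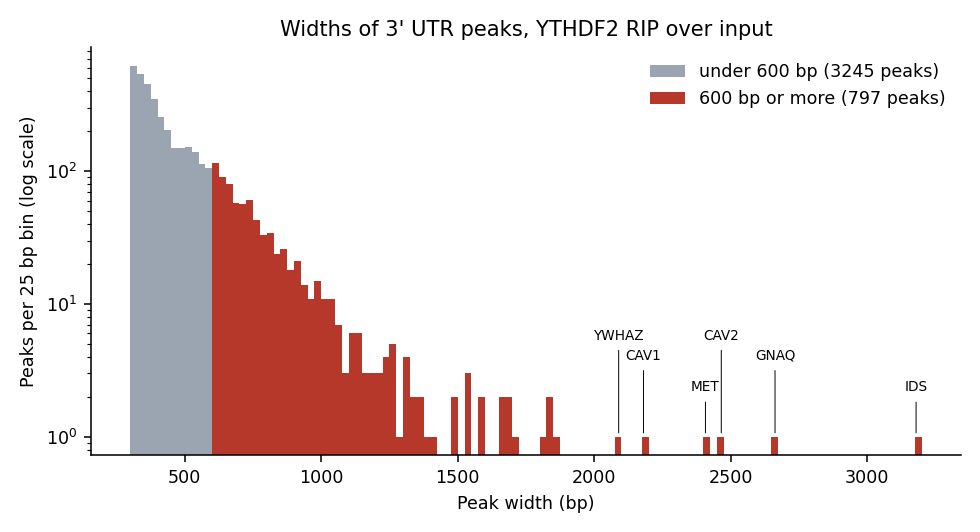
Widths of 3' UTR peaks in bp (x axis) against the number of peaks per 25 bp bin (y axis, log scale), with the 797 broad peaks in red and the 3245 narrower ones in grey. The counts decline through the 600 bp threshold without a gap, and the 6 widest peaks, labelled by gene, lie between 2090 and 3180 bp.

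The folds of the peaks next to the threshold overlapped. Of the peaks just inside it, all 600 bp wide, NXT1, an mRNA export factor, had a fold enrichment of 1.70, and the secretory GTPase RAB3B had 1.46. The thioredoxin-like protein TXNL1 had 2.58, the HSP70-family chaperone HSPA4 1.77, and MAT2B, the regulatory subunit of methionine adenosyltransferase, 1.40. Just outside it, at 599 bp, the mitochondrial peptidyl-tRNA hydrolase PTRH2 had 3.05, the Mediator subunit MED13 1.89, the anion transporter SLC26A11 3.39, the p53-induced TP53INP1 2.27 and the adaptor SH2B3 1.69. Every fold enrichment, here and for the peaks that follow, is the value the authors gave that peak, RIP over background.

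The widest peak lay in IDS, a lysosomal sulfatase that degrades heparan and dermatan sulfate. It spanned 3180 bp (chromosome X, 149479788 to 149482967), with a fold of 1.98, 193 RIP fragments at the summit and a −log10 q of 13.7. The number of fragments at a summit was recovered from each peak's fold and p-value. Next was GNAQ, the G-protein subunit that activates phospholipase C, with 2663 bp (chromosome 9, 77718603 to 77721265), a fold of 2.30 and 148 fragments. The deposited list named the neighbouring GNA14 for this peak. IDS and GNAQ were thus wide at moderate fold, and their summits lay well inside the peak, 1207 and 680 bp from its upstream edge in the direction of transcription.

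The next 3 in width were neighbours on chromosome 7. CAV2 and CAV1, which encode the caveolins of plasma membrane caveolae, had peaks of 2466 bp (116506207 to 116508672) and 2181 bp (116559185 to 116561365). MET, the hepatocyte growth factor receptor, had a peak of 2408 bp (116796147 to 116798554), for which the deposited list named CAPZA2. The 3 peaks lay within 292.3 kb, a stretch that held 13 peaks in all. They also had the 3 highest fragment numbers of the broad peaks, 309 for CAV2, 281 for MET and 273 for CAV1. Their backgrounds at the summit were 204, 192 and 173 fragments, so their folds were low: 1.51 for CAV2, 1.46 for MET and 1.58 for CAV1. All 3 peaks ended 131 to 180 bp past the annotated end of their gene.

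The remaining widths of the first 10 belonged to genes of signalling, redox balance and RNA synthesis. YWHAZ, a 14-3-3 adaptor protein, had 2090 bp at a fold of 1.52 over 253 fragments. GCLM, the modifier subunit of glutamate-cysteine ligase in glutathione synthesis, had 1862 bp at 1.44, and TXNRD1, the cytosolic thioredoxin reductase, 1848 bp at 1.48. HNRNPF, a splicing regulator that binds G-rich RNA, had 1826 bp at 1.53. POLR2A, the largest subunit of RNA polymerase II, had 1802 bp (chromosome 17, 7512884 to 7514685) and, at 2.54, the highest fold of the 10 widest. All 10 had a −log10 q of at least 2, from 2.98 for GCLM to 18.3 for POLR2A.

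Broad peaks had more fragments at the summit and lower folds than narrower 3' UTR peaks. Their median fold was 1.80 (quartiles 1.52 and 2.29, range 1.16 to 11.2) against 2.22 (1.76 and 2.74) for the narrower ones. Median fragments were 78 (quartiles 37 and 122) against 38 (15 and 75), and the median background was 42.1 against 17.0. Of the broad peaks, 449 (56.3%, interval 52.8 to 59.8) had a q of 0.01 or less, beside 37.3% of all listed peaks and 1618 narrower 3' UTR peaks (49.9%). A fold of 2 or more was reached by 293 of the 797 broad peaks, 3 or more by 88 and 4 or more by 17. Of the 3245 narrower 3' UTR peaks, 1970, 571 and 161 reached these folds. A −log10 q of 0 was listed for 112 broad and 569 narrower peaks, and 16 broad and 230 narrower ones rested on 4 or fewer fragments. Width, fold, q and fragments all come from the contrast that the width was measured in, so these values describe the peaks and carry no test.

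The gap in fold was smaller among peaks of like background. Where the background was under 5 fragments the median fold was 2.97 for 73 broad and 2.73 for 767 narrower peaks. From 5 to under 20 it was 2.23 and 2.30, from 20 to under 50 it was 1.85 and 1.94, and from 50 to under 100 it was 1.59 and 1.69. At 100 or more it was 1.52 for 87 broad and 1.48 for 50 narrower peaks. In fold the broad peaks were therefore the lower ones in the 3 middle ranges and the higher ones at either end, each time by a margin well inside the quartiles. The share with a q of 0.01 or less was also lower for broad peaks in the middle ranges, 49.0% against 50.1%, 56.9% against 63.4% and 59.9% against 68.1%, and higher at the ends, 28.8% against 21.8% and 80.5% against 56%. These ranges of background were chosen after the values were seen. Over the 797 peaks, which share libraries and depth, the Spearman correlation was −0.62 between fold and background, which enters the fold as its denominator, and 0.31 between width and fragments.

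**Figure D2:**
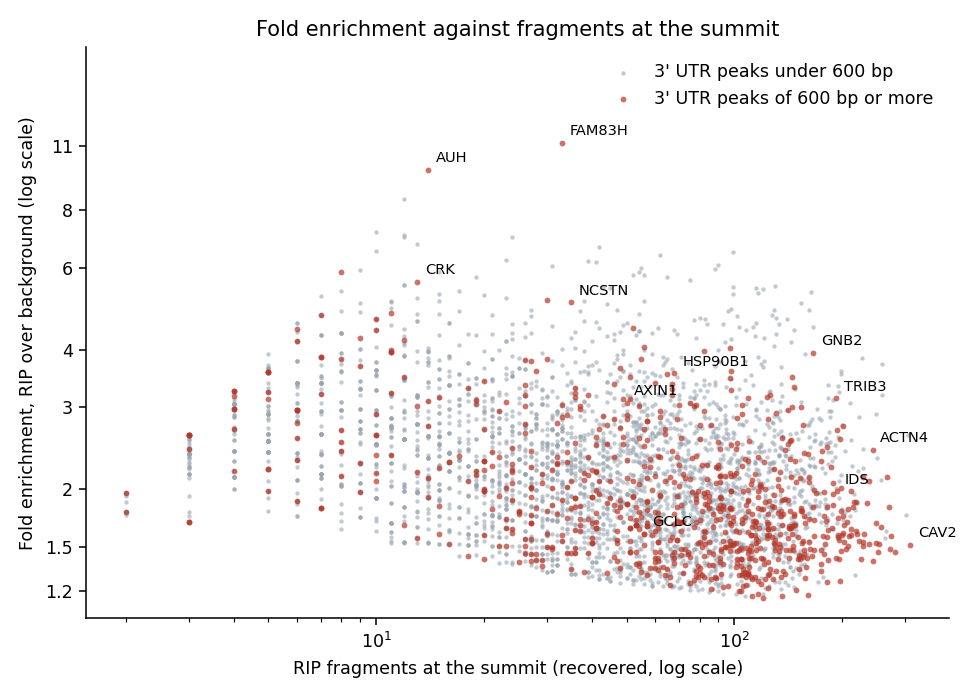
Fold enrichment (y axis, log scale) against RIP fragments at the summit (x axis, log scale), 1 point a peak, with broad 3' UTR peaks in red and narrower ones in grey. Most red points lie at the lower right, around the medians of 78 fragments and a fold of 1.80, and the labelled FAM83H (11.2) and AUH (9.78) stand above the rest.

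Among the broad peaks, the wider classes had more fragments at the summit and mostly lower folds. From the class of 600 to under 700 bp to that of 1500 bp or more, median fragments were 58, 78.5, 91, 113 and 201. The median fold over the same classes was 1.91, 1.85, 1.65, 1.66 and 1.58. The share with a q of 0.01 or less was 51.0%, 58.8%, 55.2%, 68.0% and 90.0%, the last being 18 of 20 peaks.

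The 10 highest folds belonged to peaks with fewer fragments than the median of 78. FAM83H, a protein that organises keratin filaments, had 11.2-fold over 33 fragments (chromosome 8, 143723717 to 143724436), and AUH, a mitochondrial hydratase of leucine breakdown that also binds AU-rich RNA, had 9.78-fold over 14 (chromosome 9, 91213684 to 91214398). A peak outside any gene span of the table (chromosome 11, 2944274 to 2944955) had 5.87-fold over 8. The backgrounds of AUH and of the unassigned peak were 0.533 fragments, the lowest value among broad peaks. The signalling adaptor CRK followed with 5.60-fold over 13 fragments, and the amidase NTAN1 with 5.12-fold over 30, in sequence that PDXDC1 also covers. NCSTN, the gamma-secretase subunit nicastrin, had 5.06-fold over 35. The choline dehydrogenase CHDH (4.80), GTF2IRD2 (4.76), which has near-identical copies so that its reads are uncertain, and the Ral GTPase-activating subunit RALGAPA1 (4.66) rested on 11, 7 and 10 fragments. ERG28, a scaffold of the sterol demethylation enzymes, closed the first 10 with 4.46-fold over 52.

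The 10 peaks that led by q had folds from 2.43 to 4.03 and 97 to 243 fragments. GNB2, a G-protein beta subunit, had the highest −log10 q of 42.4, at 3.93-fold over 166 fragments (chromosome 7, 100678601 to 100679361). TRIB3, a pseudokinase induced by the integrated stress response, followed with 36.0 at 3.14-fold over 192 (chromosome 20, 397033 to 397748). SF3B4, a subunit of the spliceosomal SF3B complex, had 31.6 at 3.48-fold. PEBP1, the RAF kinase inhibitor protein, had 30.1 at 2.74-fold, and VDAC1, the main pore of the outer mitochondrial membrane, 29.9 at 3.33-fold. The actin crosslinker ACTN4 (29.1, 2.43-fold) and the hydroxylase ASPH (27.7, 2.68-fold) came next, and then EI24, an ER protein of autophagy (26.6, 3.0-fold), and the lactate dehydrogenase subunit LDHA (26.1, 2.57-fold). C1orf56 was the last of these with 25.5 at 4.03-fold, in sequence shared with CDC42SE1. ASPH was the only one of the 10 wider than 1000 bp, at 1665 bp.

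The 10 peaks with the most fragments had 249 to 309. After CAV2, MET and CAV1 came TXNRD1 with 271 fragments and RAB7A, the GTPase of late endosomes, with 270. CNBP, a zinc-finger protein that binds G-rich nucleic acids, had 266, and GPX2, an epithelial glutathione peroxidase, 256. YWHAZ had 253, IRAK1, a kinase of interleukin-1 and Toll-like receptor signalling, 251, and SQSTM1, the autophagy receptor p62, 249. Except for CNBP at 2.12, their folds were between 1.46 and 1.83.

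Summits sat toward the upstream end of the peaks. The strand of the gene was known for 763 broad peaks, 387 on the plus and 376 on the minus strand. The median summit lay 125 bp from the upstream edge and 577 bp from the downstream edge, or 16.9% of the way along the peak. The upstream distance was 125 bp on either strand. Narrower 3' UTR peaks had almost the same upstream distance, 112 bp, with 261 bp on the downstream side. By these medians the extra length of broad peaks was mostly downstream of the summit. The 20 peaks of 1500 bp or more differed, with a median summit 586 bp from the upstream edge, 31.7% along the peak. In the narrower width classes of broad peaks the median upstream distance was 113 to 161 bp. The summit lay in the upstream part of the peak, nearer to that edge than to the other, for 602 of 763 broad peaks (78.9%) and 2616 of 3066 narrower ones (85.3%).

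Broad peaks whose summit lay deeper inside had higher folds. In 489 peaks (64.1%) the summit was within 200 bp of the upstream edge, and their median fold was 1.68, with 235 (48.1%) at a q of 0.01 or less. In the other 274 the median fold was 2.19, with 193 (70.4%) at that q; of these, 38 had the summit within 200 bp of the downstream edge. The order was the same in all 5 ranges of background, with medians of 2.59 and 3.03 below 5 fragments, 2.0 and 2.80 from 5, 1.77 and 2.19 from 20, 1.52 and 1.74 from 50, and 1.49 and 1.54 from 100. Narrower peaks had the same order of fold. Their median was 2.15 for summits within 200 bp of the upstream edge, 2.55 in the interior and 2.38 near the downstream edge. Their shares at a q of 0.01 or less were 51.5%, 57.2% and 30.7%, lowest near the downstream edge. Median backgrounds differed too, at 19.5, 11.6 and 7.48 fragments, and narrower peaks of like background were not compared. The interior ones were also wider, with a median of 513 bp against 366 bp for the upstream ones. The distance of 200 bp was chosen after the values were seen, and no test was made, since summit and fold come from the same signal. GNB2, TRIB3, SF3B4 and PEBP1, which lead by q, had their summits 491, 455, 431 and 557 bp from the upstream edge, while CAV2, CAV1 and YWHAZ had theirs at 130, 115 and 93 bp. Single peaks also went against this order. MET had its summit 1924 bp from the upstream edge, the largest distance of all broad peaks, at a fold of only 1.46. TXNRD1 too had its summit more than 200 bp from that edge, at 1.48-fold.

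**Figure D3:**
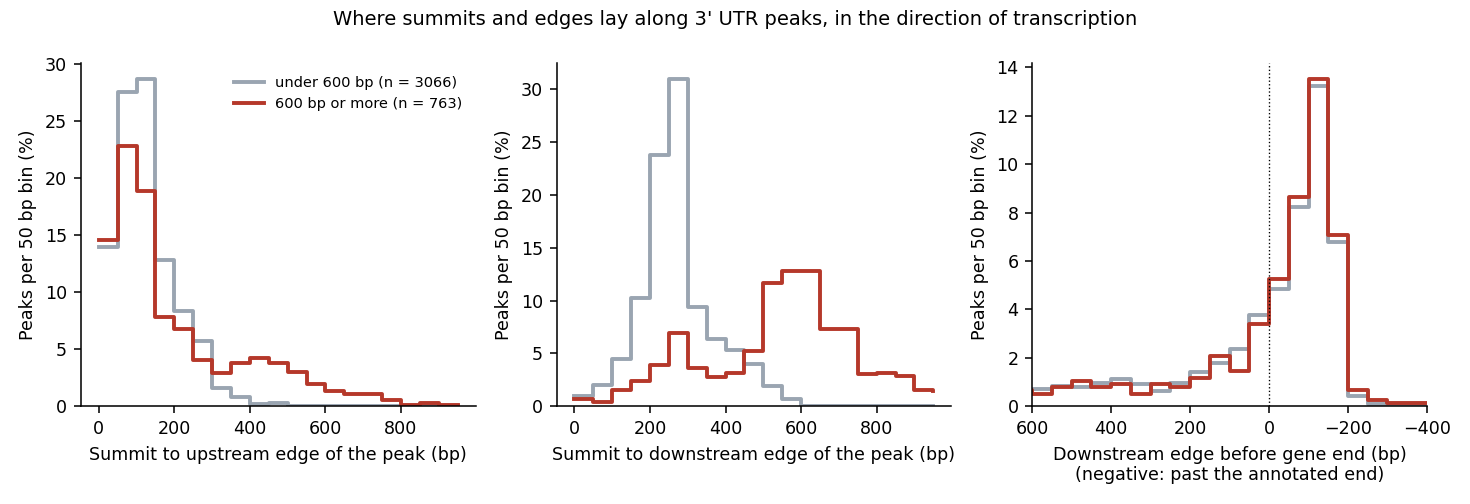
Percentage of peaks per 50 bp bin by the distance of the summit from the upstream edge (left) and the downstream edge (middle), and by the distance of the downstream edge from the annotated gene end (right, negative values past the end), for 763 broad (red) and 3066 narrower (grey) 3' UTR peaks. The upstream distances peak below 150 bp in both sets, the downstream distances of broad peaks are longer (median 577 against 261 bp), and both sets pile up 100 to 150 bp past the gene end.

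Many broad peaks ran to the end of the mRNA. The downstream edge was within 200 bp of the annotated gene end in 325 of 763 peaks (42.6%), against 42.3% of narrower peaks. It lay 50 to 200 bp past that end in 226 (29.6%), and the fullest 50 bp bin, 100 to 150 bp past it, held 103 broad and 405 narrower peaks. Of the rest, 426 ended more than 200 bp inside the gene and 12 more than 200 bp beyond it. The median fold was 1.81 for the 325 that reached the end and 1.79 for the 426 that did not. Among narrower peaks it was 2.40 at the end and 2.05 inside, and whether broad and narrower peaks differ in this was not tested. For 60 broad peaks the edge was more than 10000 bp inside the gene, as for ASPH (123777 bp).

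Of the 744 genes, 699 had 1 broad peak, 40 had 2 and 5 had 3. The gap between the 2 peaks of a gene had a median of 543 bp and was under 1000 bp in 29 of the 40. NUCKS1, a chromatin protein that binds DNA, had 3 broad peaks within 4627 bp of its end, 1365, 1182 and 766 bp wide, with folds of 1.70, 1.79 and 1.36. A narrow peak 5489 bp before that end had the highest fold of the gene, 3.11. RAB3B had 3 broad and 3 narrow peaks spread over the last 10335 bp, with folds of 1.46, 1.88 and 2.17 for the broad ones in the order of transcription. NFIA, a transcription factor of the nuclear factor I family, had 1.92, 2.95 and 4.20 in that order, over 40, 22 and 12 fragments. UHMK1, a kinase with a U2AF homology motif, had 1.67, 1.83 and 2.36, and RO60, which binds misfolded small RNAs, 1.55, 1.62 and 2.35. In 4 of these 5 genes the broad peak nearest the end thus had the highest fold of the gene's broad peaks. In NUCKS1 it had the lowest. That peak also had the fewest fragments of the gene's broad peaks in NFIA (12), UHMK1 (61), RO60 (39) and NUCKS1 (104). In RAB3B it had the most (134).

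**Figure D4:**
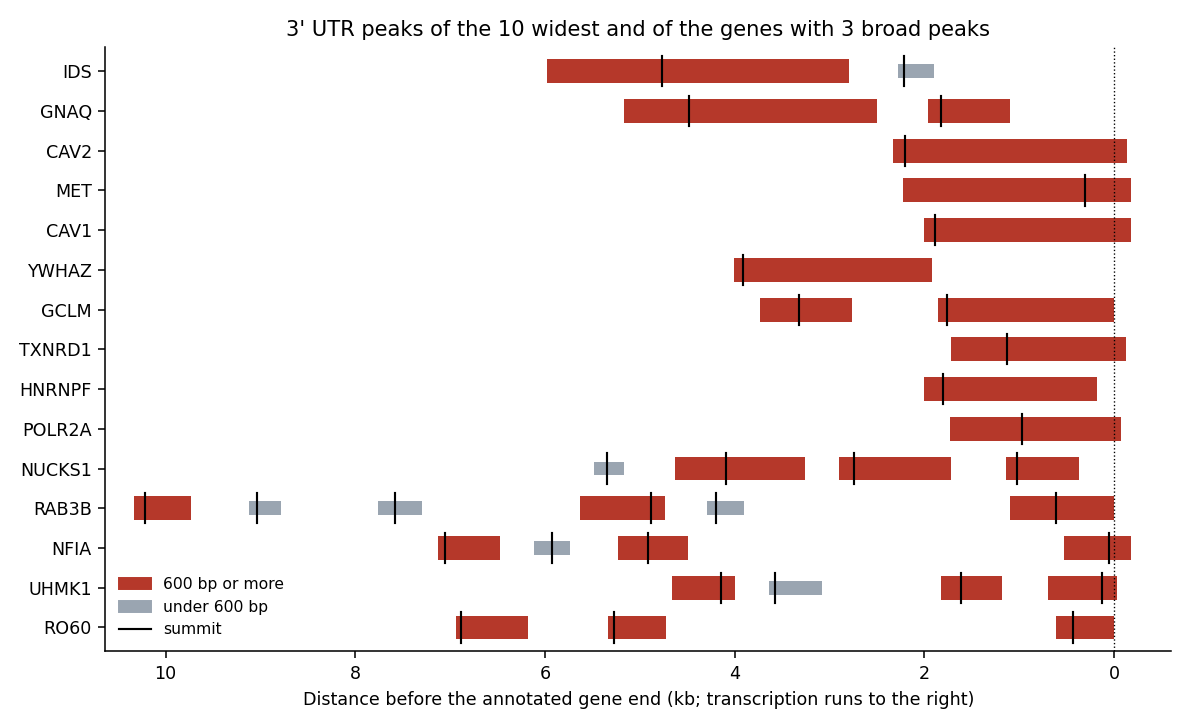
Position of all 3' UTR peaks of 15 genes, drawn to scale as distance before the annotated gene end in kb with transcription to the right; broad peaks are red, narrower ones grey, and black ticks are summits. The upper 10 genes hold the widest peaks, from IDS (3180 bp) to POLR2A (1802 bp), and the lower 5 hold 3 broad peaks each.

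Among the genes with 2 broad peaks, those with the largest summed width were GNAQ (3526 bp), GCLM (2830 bp), ARPP19, an inhibitor of the phosphatase PP2A (2688 bp), the N-terminal acetyltransferase NAA50 (2569 bp) and MDFIC (2546 bp). In 157 of the 744 genes a narrower 3' UTR peak was present too, and in 373 a peak of another transcript class. The broad peak was the gene's only peak in 299 genes (40.2%), compared with 1502 of the 2697 genes (55.7%) whose 3' UTR peaks were all narrower.

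The members were then read by function, through 26 lists of genes. Of all 3441 genes with a 3' UTR peak, 21.6% had a broad one, and the median fold of all broad peaks was 1.80. Of the 744 genes with a broad peak, 422 (56.7%) had one at a q of 0.01 or less. Each list is set beside these values without a test, with its share taken over its genes with a 3' UTR peak. In 19 of the 25 lists with any 3' UTR peak that share was above 21.6%, and in 6 it was below. YTHDF2 and CRTC2 had no broad peak. A peak list gives no level for a gene without a peak.

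Of 26 genes that write, erase or read m6A, 13 had a 3' UTR peak and 3 had a broad one. ALKBH5, an m6A demethylase, had 1057 bp at 1.58-fold over 167 fragments, and HNRNPC, which binds RNA opened by m6A, 925 bp at 1.72-fold; both had a q of 0.01 or less. YTHDF3, a paralog of YTHDF2, had 633 bp at 1.72-fold with a −log10 q of 0.751. Deadenylation, decapping and decay gave 4 of 57 genes, of 25 with a 3' UTR peak. Of these only CNOT9, a subunit of the CCR4-NOT deadenylase, reached that q (721 bp, 1.93-fold, −log10 q 4.97). The deadenylase subunit PAN3 (885 bp, 1.85-fold), the decapping activator PATL1 (769 bp, 1.63-fold) and the microRNA effector AGO1 (2 peaks of 1.50 and 2.26-fold) did not. This is 1 of 4 genes, beside 56.7% of all genes with a broad peak, a difference that was not tested. As shares of the genes with a 3' UTR peak, the lists had 23.1% and 16% with a broad one, against 21.6% of all such genes.

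Splicing factors and hnRNPs had 11 of 51 genes, of 27 with a 3' UTR peak (40.7%), with a median fold of 1.68 and 120.5 fragments. At a q of 0.01 or less, 10 of the 11 had a broad peak, beside the 56.7% of all genes with a broad peak. After HNRNPF, the widest was that of SRSF3, a serine and arginine-rich splicing factor (1260 bp, 1.66-fold). The CUG-binding MBNL1 (974 bp, 1.33-fold), HNRNPC and HNRNPR (868 bp, 1.67-fold) followed. This MBNL1 peak did not reach that q, but another MBNL1 peak, of 728 bp at 1.43-fold, did. Translation initiation and elongation factors had 6 of 42 genes, of 19 with a 3' UTR peak (31.6%), with a median fold of 1.94. The cap-binding protein EIF4E had 938 bp at 3.04-fold, and EIF4B, a helper of the cap helicase, 895 bp at 2.13-fold. EIF4H (782 bp, 1.47-fold), EIF4E2 (680 bp, 2.01-fold) and EIF2S1 (664 bp, 1.46-fold) did not reach a q of 0.01, and 3 of the list's 6 genes did. Cytosolic ribosomal proteins had none: 60 of 79 genes had a peak somewhere and 13 had one in the 3' UTR, all of them narrower.

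The antioxidant genes driven by the transcription factor NRF2, with ferritin and iron genes, had 11 of 29 genes with a broad peak, of 15 with any 3' UTR peak, or 73.3% against 21.6% of all genes with a 3' UTR peak. Their 13 peaks had a median fold of 1.60 and a median of 218 fragments, against 1.80 and 78 for all broad peaks, and 8 of the 11 genes had one at a q of 0.01 or less, beside 56.7% of all genes with a broad peak. GCLM had 2, of 1862 and 968 bp, with folds of 1.44 and 1.65, and GCLC, the catalytic subunit of the same ligase, had 1019 bp at 1.60-fold over 56 fragments without reaching that q. SRXN1, which repairs oxidised peroxiredoxins, had 1224 and 826 bp at 1.62 and 1.39-fold, and GSR, glutathione reductase, 958 bp at 1.28-fold, not reaching it. SQSTM1 had 745 bp at 1.69-fold and GPX2 631 bp at 1.66-fold. PRDX6, a peroxiredoxin named after its values were seen, had 615 bp at 1.96-fold over 169 fragments. The list's peaks thus had a higher median of fragments and a lower median fold than all broad peaks. With the deposited nearest-start gene in place of the gene at the summit, 6 list genes and not 11 had a broad peak.

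Genes of the unfolded protein response and chaperones had 9 of 48, of 15 with a 3' UTR peak (60.0%), with a median fold of 1.60. The 5 widest were DNAJB9, an ER co-chaperone (914 bp, 1.36-fold), BAG3 (788 bp, 1.16-fold, the lowest fold of all broad peaks), the transcription factor XBP1 (767 bp, 1.48-fold), the ER chaperone HSPA5 (752 bp, 1.60-fold) and the cytosolic HSP90AA1 (750 bp, 1.73-fold). Of these HSPA5 and HSP90AA1 had a q of 0.01 or less. In the whole list 5 of the 9 genes had a broad peak at that q, beside 56.7% of all genes with a broad peak. TRIB3 at 3.14-fold and HSP90B1, the ER form of HSP90, at 3.55-fold had the highest folds; the latter was named after its values were seen. In glycolysis 2 of 25 genes, of 8 with a 3' UTR peak (25%), had a broad peak, LDHA and the kinase PGK1 (801 bp, 1.57-fold), both at that q. Cholesterol and fatty acid synthesis had 4 of 35, of 13 with a 3' UTR peak (30.8%). The desaturase SCD had 2 of them (1253 and 856 bp, 1.69 and 1.54-fold) and the squalene synthase FDFT1 789 bp at 2.02-fold, at that q, while HMGCS1 (1036 bp, 1.42-fold) and MSMO1 (702 bp, 1.38-fold) did not reach it. Subunits of oxidative phosphorylation had 2 of 45, of 19 with a 3' UTR peak (10.5%), COX5A of complex IV (740 bp, 3.30-fold) and UQCRFS1 of complex III (677 bp, 1.26-fold, not at that q). Solute carriers had 6 of 50, of 21 with a 3' UTR peak (28.6%). The glutamine carrier SLC38A1 was the widest (1229 and 628 bp, 1.29 and 1.65-fold), though only its narrower peak reached that q. The creatine carrier SLC6A8 was next (810 bp, 2.01-fold). The glutamine carrier SLC1A5 (705 bp, 1.41-fold) and the zinc carriers SLC30A7 (638 bp, 2.19-fold) and SLC39A9 (628 bp, 1.60-fold) followed, of which SLC30A7 alone had a q of 0.01 or less. In the whole list 3 of the 6 genes had a broad peak at that q.

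In signalling, the list of CREB, CRTC, SIK and calcineurin genes with their 14-3-3 partners had 7 of 35 genes, of 20 with a 3' UTR peak (35%), at a median fold of 1.72. Of these, 4 were 14-3-3 proteins: YWHAZ, YWHAH (908 bp, 1.67-fold), YWHAG (874 and 702 bp, 1.41 and 1.89-fold) and YWHAQ (639 bp, 2.05-fold), the last named after its values were seen. All 4 had a q of 0.01 or less, as had 5 of the list's 7 genes with a broad peak, beside 56.7% of all such genes. The calcineurin subunit PPP3R1 had 709 bp at 1.76-fold, at that q, and the protein kinase A subunit PRKAR1A 665 bp at 1.45-fold, which did not reach it. The remaining gene, the CREB-family member CREM, had 610 bp at 1.97-fold over 20 fragments with a −log10 q of 0.449, and was named after its values were seen. The list of receptor tyrosine kinases with the RAS-MAPK and PI3K pathways had 8 of 63, of 24 with a 3' UTR peak (33.3%). Besides MET, SPRED2, which restrains RAS through neurofibromin, had 1315 bp at 2.92-fold over 131 fragments with a −log10 q of 21.7, and another peak of 760 bp at 1.54-fold that did not reach a q of 0.01. Its paralog SPRED1 had 782 bp at 2.09-fold, and MAPK6 781 bp at 1.44-fold, both at a q of 0.01 or less, while the peaks of the MAPK feedback inhibitor SPRY4 (823 and 646 bp, 1.65 and 1.55-fold) were not. In the whole list 5 of the 8 genes had a broad peak at that q. Wnt and Hippo signalling had 9 of 55, of 22 with a 3' UTR peak (40.9%), at a median fold of 1.87. The destruction complex scaffold AXIN1 had 907 bp at 3.07-fold and the kinase GSK3B 877 bp at 1.87-fold. The Hippo effector YAP1 had 770 bp at 2.47-fold, its competitor VGLL4 968 bp at 1.77-fold, and the kinase activator MOB1A 756 bp at 1.76-fold. All 5 had a q of 0.01 or less. Of the list's 9 genes with a broad peak 6 had one at that q, beside 56.7% of all genes with a broad peak.

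Sequence-specific transcription factors had 16 of 92 genes, of 39 with a 3' UTR peak (41.0%), with 19 peaks and a median fold of 1.79. MAX, the partner of MYC, had the widest (1424 bp, 1.98-fold), followed by the small MAF protein MAFK (987 bp, 2.10-fold), BHLHE40 (962 bp, 1.30-fold), NFIC (919 bp, 1.51-fold) and the pioneer factor FOXA1 (852 bp, 2.80-fold). MAX, MAFK and FOXA1 had a q of 0.01 or less. In the whole list 9 of the 16 genes had a broad peak at that q, beside 56.7% of all genes with a broad peak. Of 32 genes recurrently altered in liver cancer, 16 had a 3' UTR peak and 4 of these (25%) a broad one, among them AXIN1, the kinase JAK1 (849 bp, 1.74-fold) and MYC (723 bp, 1.50-fold over 207 fragments), of which JAK1 did not reach that q. Cell cycle genes had 3 of 52, of 24 with a 3' UTR peak (12.5%): CDKN1A, the inhibitor p21 (789 bp, 1.20-fold, not at that q), cyclin B1, CCNB1 (705 bp, 2.35-fold), and the mitotic kinase AURKB (621 bp, 3.82-fold). Chromatin regulators had 3 of 60, of 17 with a 3' UTR peak (17.6%). They were HMGA2 (1053 bp, 2.17-fold), the methyltransferase SETD1B (989 bp, 1.43-fold) and the heterochromatin protein CBX5 (772 and 693 bp, 1.47 and 1.53-fold), and none of their 4 peaks had a q of 0.01 or less, beside 56.3% of all broad peaks.

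**Figure D5:**
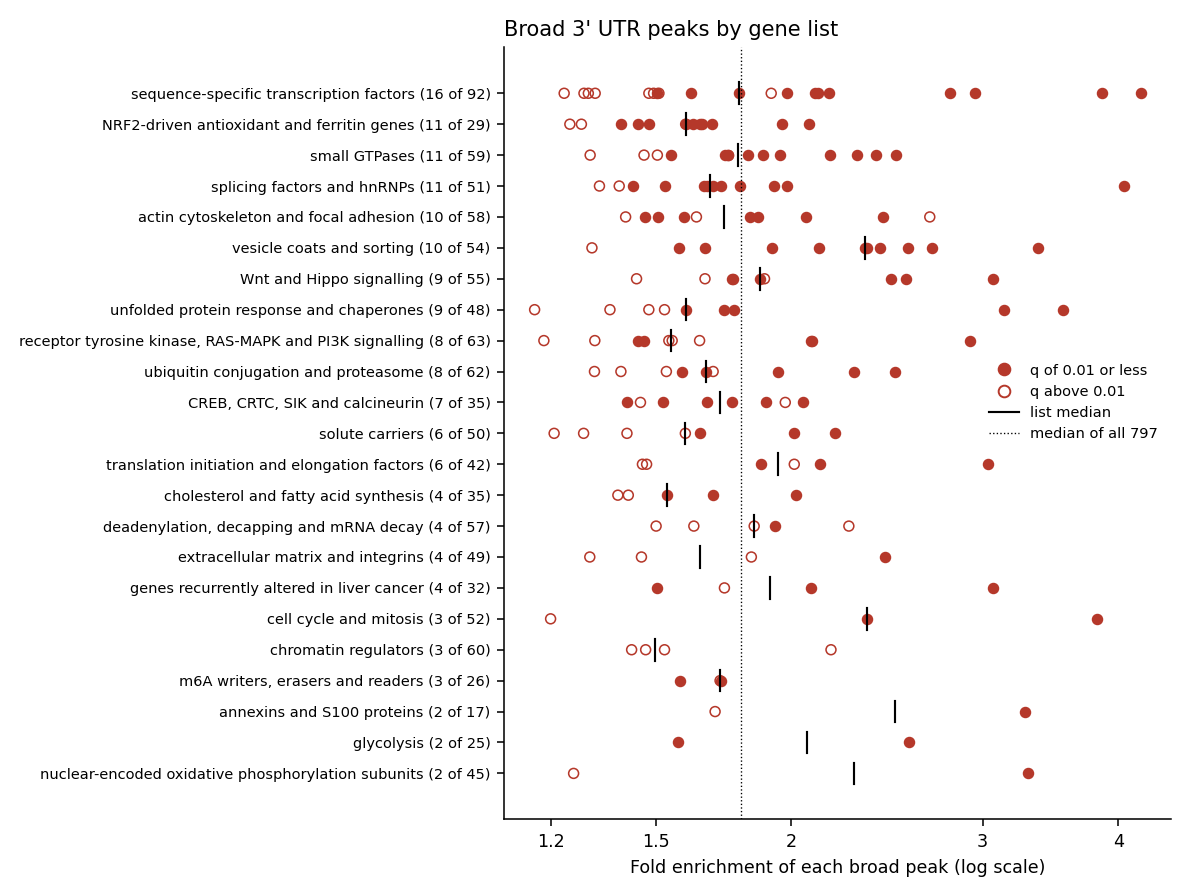
Fold enrichment of each broad 3' UTR peak (x axis, log scale) in the 23 gene lists that held any, with the number of list genes with a broad peak and the list size in parentheses; filled points had a q of 0.01 or less, black ticks are list medians and the dotted line is the median of all 797 peaks (1.80). The NRF2 list sits mostly left of the line (median 1.60), and vesicle coats and sorting sit mostly right of it (median 2.34).

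The actin cytoskeleton and focal adhesion had 10 of 58 genes, of 28 with a 3' UTR peak (35.7%), with a median of 147 fragments and a fold of 1.73. Tropomyosin TPM4 had 1579 bp at 1.86-fold over 234 fragments and MSN, moesin, 1547 bp at 1.83-fold over 214. The focal adhesion scaffold PXN (1260 bp, 1.47-fold), ACTR3 of the ARP2/3 complex (1189 bp, 2.06-fold) and the actin bundler LIMA1 (941 bp, 1.51-fold) also had a q of 0.01 or less. Not all of the list did: 7 of its 10 genes with a broad peak had one at that q, beside 56.7% of all such genes. Small GTPases had 11 of 59 genes, of 35 with a 3' UTR peak (31.4%), with 14 peaks, 11 of them at that q beside 56.3% of all broad peaks. RAB7A led by width (1398 bp, 1.83-fold), then RAB3B (1102 bp, 2.17-fold), the polarity GTPase CDC42 (960 bp, 1.30-fold, not at that q), RAP2C (800 bp, 1.95-fold) and RAB10 (790 and 682 bp, both 1.75-fold). Vesicle coats and sorting had 10 of 54 genes, of 32 with a 3' UTR peak (31.2%), with a median fold of 2.34. Each of the 10 had a peak at that q, beside 56.7% of all genes with a broad peak. They included ARCN1 of the COPI coat (1672 bp, 1.66-fold), the clathrin assembly protein PICALM (758 bp, 2.34-fold), AP1G1 of the AP-1 adaptor (741 bp, 2.56-fold), SEC23B of the COPII coat (703 bp, 2.35-fold) and the SNARE protein SEC22B (701 bp, 3.38-fold).

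Ubiquitin conjugation and the proteasome had 8 of 62 genes, of 32 with a 3' UTR peak (25%), at a median fold of 1.67, led by the ER-associated enzyme UBE2J1 (1486 bp, 1.53-fold, not at a q of 0.01). UBE2V1 (1054 bp, 1.59-fold) and the proteasome lid subunit PSMD11 (799 and 629 bp, 2.28 and 1.94-fold) had that q, and the deubiquitinase USP7 (1004 bp, 1.39-fold) and UBE2Z (798 bp, 1.32-fold) did not. In the whole list 4 of the 8 genes had a broad peak at that q. Extracellular matrix and integrins had 4 of 49, of 14 with a 3' UTR peak (28.6%): the integrin chains ITGAV (992 bp, 1.30-fold) and ITGA5 (665 bp, 1.84-fold), the protease inhibitor TIMP2 (719 bp, 2.44-fold) and thrombospondin THBS1 (615 bp, 1.46-fold). Only TIMP2, 1 of these 4, had a q of 0.01 or less, beside 56.7% of all genes with a broad peak, a difference that was not tested. Annexins and S100 proteins had 2 of 17, of 9 with a 3' UTR peak (22.2%), ANXA4 (996 bp, 1.70-fold) and ANXA7 (612 bp, 3.28-fold, at that q). Secreted proteins and enzymes of hepatocytes, the markers of the labelled tissue, had no broad peak in 31 genes, 3 with any 3' UTR peak and 5 with a peak of any class. Markers of other liver and blood cells had none in 27 genes, and 5 with a peak of any class.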

How the data were processed

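RNA of 2 YTHDF2 RIP and 2 input samples was taken with a magnetic RIP kit and made into stranded total RNA libraries, per the labels' protocols. The submitters' processing notes name HISAT2, MACS2 and hg38; versions, options and the way of combining libraries were not given in the sources used here. Per the file headers, the deposited list holds positions, widths and summits of peaks with a fold, a score and the −log10 of p and q. The authors' fold is a ratio, RIP over background. The authors' −log10 p-value and q-value served only to describe and rank peaks. The deposited score was the −log10 p times 10 without its decimals in 100% of peaks and was left unused.

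With a pseudocount of 1, fold = (k + 1) / (background + 1), and p is the Poisson chance of more than k fragments. Solving both for a whole k met each −log10 p within 0.000189. On 2000 peaks simulated with this same formula k was recovered in 2000, which checks the solving and cannot check the formula. Gene spans came from a RefSeq table of GRCh38.p14: a protein-coding gene was preferred, next the deposited one, and last the shortest. Strand came from RefSeq promoters or the deposited strand, which agreed for 99.8% of 6192 shared genes. The table of spans has no strand, so overlapping genes cannot be told apart (52 broad peaks), and 3 broad peaks lay in no gene. Besides NTAN1 and C1orf56, named genes with such an overlap were VGLL4 (with ATG7), MAFK (TMEM184A), GPX2 (CHURC1-FNTB), EIF2S1 (GPHN) and UBE2V1 (PEDS1-UBE2V1). Intervals are 95% Clopper-Pearson; without molecular identifiers, reads may repeat a molecule. Python 3.11.15, pandas 2.3.3 and scipy 1.17.1 were used.

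Named genes are the 10 broad peaks leading by width, fold, −log10 q and fragments, the 10 genes with most broad peaks, 5 peaks on each side of 600 bp, YTHDF2, CRTC2, and up to 5 genes with the widest broad peak of each list; others are marked, and some items that the rule takes are not reported here. Members and lists were chosen with earlier results of these data known. Alternatives changed the width threshold, the q and the gene assignment. No sequence is shown, as no genome was used here.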

Additional observations from a re-analysis of the deposited data

How the results depend on the processing

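The limits of these values are the width threshold and the single combined list. At 500 bp or more there were 1308 peaks in 1210 genes, 82 genes with several, 47.3% of 3' UTR peak length, 62 median fragments, a median summit 19.9% along the peak and 52.2% at a q of 0.01 or less. At 800 bp or more these were 258 peaks, 245 genes, 13 genes, 13.9%, 104 fragments, 14.7% and 61.6%, with a median fold of 1.65 and a summit 143 bp from the upstream edge; 6 genes of the NRF2 list had one. With peaks at a q of 0.01 or less only, 449 peaks lay in 422 genes, 23 with several, with 36.7% of length, 101 fragments, a median fold of 1.99 and a summit 22.1% along the peak, 163.5 bp from the upstream edge. That setting gives no share by q. The median fold was 1.83 at 500 bp or more, a set that holds all 797 broad peaks, beside 1.80 for those peaks alone. The deposited gene gave 739 genes, of which 364 were among the 744; a gene covering at least 50% of the peak gave 743, and peaks with 1 candidate gene 693. Counts of NRF2 genes, the upstream distance and the number of peaks were added after seeing the data. The planned motif search, over whole peaks and 200 bp windows, was not run, as no genome was used here. No paired analysis was possible because the list holds no value per library, and for that reason no library could be left out. Depth is unknown, so the absence of a broad peak does not show that a gene was unbound.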

Other observations

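The deposited nearest-start gene was the gene at the summit for 375 of 797 broad peaks (47.0%) and another for 422, near the 47.1% of narrower 3' UTR peaks. Among the genes named above, the deposited list gives DNTTIP2 for the broad peak of GCLM, EID3 for TXNRD1, YWHAE for CRK, RBCK1 for TRIB3, FEZ1 for EI24, LDHC for LDHA and MAPK15 for FAM83H.

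By chromosome, the share of 3' UTR peaks that were broad ran from 12.9% on chromosome 22 (interval 6.05 to 23.0) to 24.9% on chromosome 17 (19.3 to 31.1). The largest number of peaks in a gene with a broad one was 13, in FNDC3B, a membrane protein with fibronectin repeats, and in SEPTIN9, a cytoskeletal GTPase, both named after their values were seen. None of the 797 broad peaks overlapped a microRNA hairpin of the RefSeq table.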
